A study of Mus musculus with 32 samples.

Results

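The genes described here are 10 regulators of neural tube patterning: Irx3, Irx5, Pax6, Six3, Lhx5, Meis1, Meis2, Nr2f1, Nr2f2 and Mn1. They were listed by name, with earlier results of these data known, and all 10 have a row among the 31053 genes of the count files. The cells were E14, an established mouse embryonic stem cell line derived from a blastocyst, and no group carried a named genetic change. Cells were kept in N2B27, a serum-free medium, on gelatin, either with 2i alone or with 2i and leukaemia inhibitory factor (2iL). The 2i mixture joins 3 uM CHIR99021, which blocks the kinase GSK3, with 1 uM PD0325901, which blocks the kinase MEK. Both additives were then withdrawn and the cells stayed in N2B27, with no patterning factor named in the labels. Cells from 2i were collected at 0, 12, 24, 36, 48, 60, 72 and 84 h (the 2i course) and cells from 2iL at 0, 24, 36, 48, 60, 72, 84 and 96 h (the 2iL course). Each of the 16 groups had 2 libraries of polyadenylated RNA, counted at transcript 3' ends. The second 2iL 36 h library held 7298 counts and was left out, so that group has 1 library.

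The remaining 31 libraries held 1122648 to 3438514 counts, with a median of 1980949. A count of 0 in a library therefore allows a level of up to 0.872 to 2.67 CPM (counts scaled to a library total of 1000000), which is 3 counts of the total and covers counting error only. This range uses the raw library totals. The levels printed below use totals rescaled by TMM factors, so the range on their scale differs somewhat. The labels do not say whether the 2 libraries of a group came from separate cultures, so the p-values measure only the spread between these libraries. The share of uniquely mapped reads that were assigned to no gene, ambiguous reads included, varied between libraries. It was 30.9% and 46.4% at 2i 0 h, 53.8% and 55.6% at 2i 84 h, 47.0% and 41.2% at 2iL 0 h, and 54.0% and 50.4% at 2iL 96 h. Its part in the late levels was not tested. All 12 genes of a list of naive pluripotency markers were lower at 2i 84 h than at 0 h and all 12 at 2iL 96 h than at 0 h, against 16.6% and 20.1% of all tested genes.

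The neural tube is divided along its length by transcription factors that repress each other across borders. Six3 and Lhx5 mark the most anterior neural plate, where both keep Wnt signalling low. Irx3 and Irx5 are Iroquois homeodomain factors of the neural plate behind the forebrain, Meis proteins are cofactors of Pbx and Hox proteins in the hindbrain and spinal cord, and the orphan nuclear receptors Nr2f1 and Nr2f2 (COUP-TFI and COUP-TFII) are known retinoic acid-responsive genes. Pax6 acts in forebrain, eye and the intermediate neural tube, and Mn1 is a transcriptional coregulator.

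In the cells withdrawn from 2i, 8 of the 9 members that could be tested were higher at 84 h than at 0 h and 0 were lower, where 16.6% of the 12556 tested genes were higher (edgeR quasi-likelihood test, Benjamini-Hochberg adjusted p below 0.05). After withdrawal from 2iL, 8 of 9 were higher at 96 h than at 0 h and 0 were lower, against 19.5% of all tested genes. Without 2iL 96 h replicate 2, 5 members passed there. Six3 passed in the 2iL course and not in the 2i course, and for Meis2 it was the reverse. Six3 did not pass the filter on low counts without 2iL 96 h replicate 2, its highest library, so its call depends on that selection. The median log2 change of the 9 members was 5.10 in the 2i course and 2.79 in the 2iL course, while the median over all tested genes was near 0 in the 2i course (-0.00076). Setting genes with 0 counts at their bounds gave the same medians, 5.10 and 2.79. Lhx5, with 29 counts over all libraries, did not pass the filter on low counts. Tests over the 7 later times together called 8 members in the 2i course and 9 in the 2iL course, where 52.3% and 56.5% of all genes passed.

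**Figure D1:**
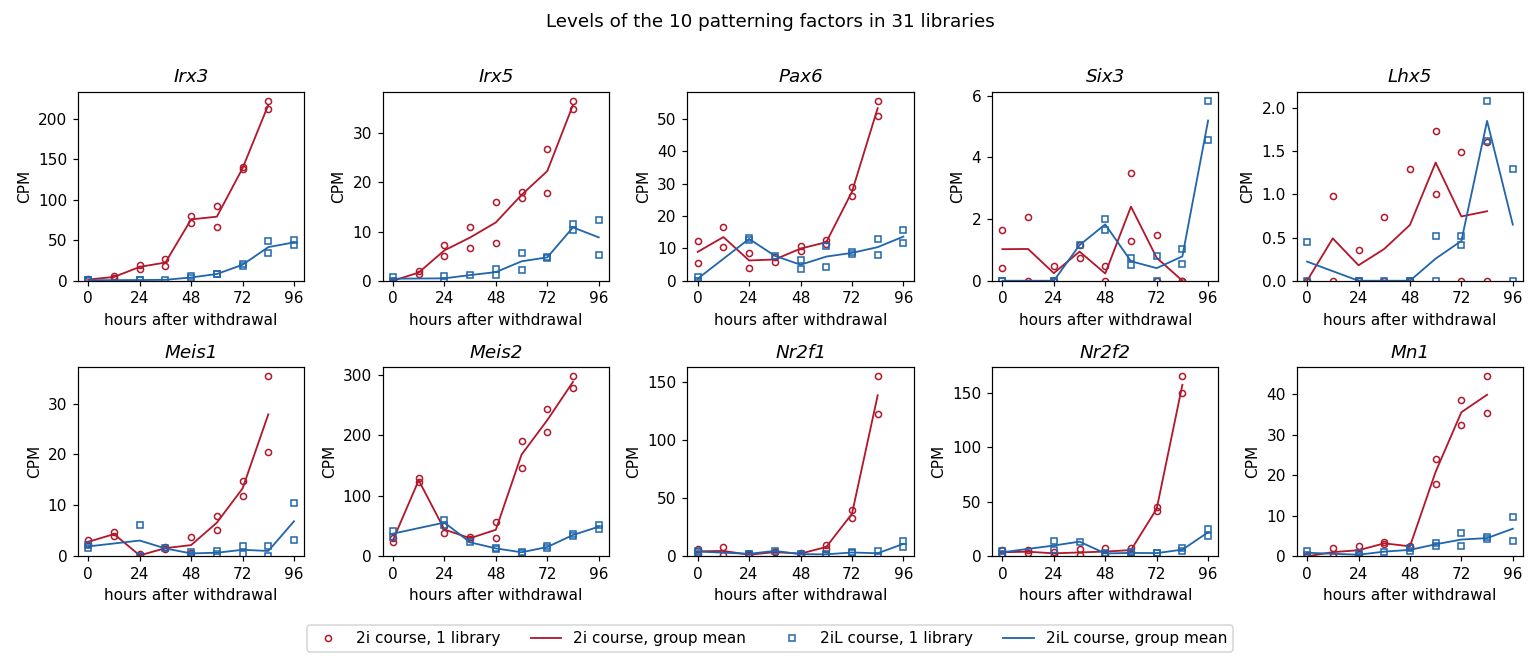
CPM of each of the 10 genes (y axis, a separate scale for each gene) against hours after withdrawal (x axis). Points are single libraries and lines join group means, red circles for the 2i course and blue squares for the 2iL course. Irx3 reaches 212 and 222 CPM at 2i 84 h and 50.7 and 44.0 CPM at 2iL 96 h, while Six3 has its highest levels, 4.55 and 5.83 CPM, at 2iL 96 h.

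The 4 windows printed here lie upstream of annotated starts and are shown because 3 belong to members that were high at 2i 84 h and 1 to Six3, which had 0 counts there. They come from the RefSeq promoter table for GRCm38.p6, which held 7 of the 10 members with 9 start sites. Irx5, Lhx5 and Mn1 are named only. Each window is the 250 bases before a start with bases of annotated exons removed. It is written 5' to 3' on the gene's own strand, and capitals mark every match of the motifs searched. The Nr2f2 window is chr7:70366747-70366996 on the minus strand, the Meis1 window chr11:19018986-19019219 on the minus strand, the Pax6 window chr2:105668646-105668895 on the plus strand and the Six3 window chr17:85620584-85620789 on the plus strand.
Nr2f2: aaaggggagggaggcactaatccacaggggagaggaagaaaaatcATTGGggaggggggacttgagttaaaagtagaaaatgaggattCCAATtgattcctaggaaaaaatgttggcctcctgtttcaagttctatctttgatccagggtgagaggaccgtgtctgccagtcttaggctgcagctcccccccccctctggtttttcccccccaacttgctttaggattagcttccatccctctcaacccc
Meis1: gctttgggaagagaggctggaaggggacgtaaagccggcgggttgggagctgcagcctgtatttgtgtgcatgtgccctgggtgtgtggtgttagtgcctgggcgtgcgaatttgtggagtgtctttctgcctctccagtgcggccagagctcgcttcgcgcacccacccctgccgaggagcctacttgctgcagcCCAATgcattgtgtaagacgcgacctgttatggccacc
Pax6: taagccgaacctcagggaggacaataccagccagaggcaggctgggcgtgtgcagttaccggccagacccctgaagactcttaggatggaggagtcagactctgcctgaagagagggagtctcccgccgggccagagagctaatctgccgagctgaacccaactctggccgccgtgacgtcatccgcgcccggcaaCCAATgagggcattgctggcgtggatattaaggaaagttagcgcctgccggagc
Six3: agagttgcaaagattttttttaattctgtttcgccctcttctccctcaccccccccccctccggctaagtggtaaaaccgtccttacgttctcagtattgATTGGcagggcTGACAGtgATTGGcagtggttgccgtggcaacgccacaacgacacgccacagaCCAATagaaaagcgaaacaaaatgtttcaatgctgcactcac

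The motifs searched on both strands were CCAAT (the box of that name), TGACAG (a MEIS core), AGGTCA (a nuclear receptor half-site), TAATTA (a homeodomain core), GGGCGG (the box of GC-rich promoters) and TATAAA (the core promoter box). No matches overlapped in the printed windows. CCAAT was found upstream of Pax6, Meis1, Meis2, Nr2f2 and Six3, in 5 of the 9 member windows, and in 33.8% of the 32851 mouse windows of this length. TGACAG was found upstream of Six3 and of the second Pax6 start, and in 15.9% of all windows. AGGTCA, present in 14.02% of all windows, and TAATTA, in 4.84%, were in none of the 9 member windows. GGGCGG was upstream of Nr2f1 (32.7% of all windows) and TATAAA upstream of Meis2 (12.4%). All 4 printed windows hold CCAAT, whereas those of Irx3, of both Nr2f1 starts and of the second Pax6 start do not. The second Pax6 window held no exon bases either and was not printed, so the printed windows do not stand for all 9. A match is a description of letters only.

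Irx3 and Irx5 lie on chromosome 8 of GRCm38, at 91798525 to 91802067 on the minus strand and at 92357625 to 92376286 on the plus strand, with 556 kb between them. They belong to 1 Iroquois cluster, whose other gene, Irx6, had 40 counts in all libraries. Irx3 had 2 and 4 counts at 2i 0 h, levels of 0.794 and 2.20 CPM. In the 2i course it reached 19.1 and 15.03 CPM at 24 h, 71.1 and 80.2 CPM at 48 h, 138 and 140 CPM at 72 h, and 212 and 222 CPM at 84 h. Both libraries of each of these times lay above both libraries of the time listed before it. At 84 h the log2 change from 0 h was 7.22 ± 0.34 (SE, adjusted p = 2.5e-16, edgeR).

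Irx3 was first called higher at 24 h of the 2i course, where the 4 members called were Irx3, Irx5, Meis2 and Mn1 and 8.47% of all genes were higher. Its steps between neighbouring times were called from 12 to 24 h (log2 1.91, 4.44% of genes higher), from 36 to 48 h (1.77, 0.828%) and from 60 to 72 h (0.82, 0.534%). The 60 to 72 h step did not pass without 2i 60 h replicate 1 (adjusted p = 0.47, edgeR), 2i 72 h replicate 1 (0.256) or 2i 72 h replicate 2 (0.22), and the 12 to 24 h step did not pass without 2i 12 h replicate 1 (0.0791). The steps from 24 to 36 h (0.39 ± 0.28), from 48 to 60 h (0.055 ± 0.21) and from 72 to 84 h (0.64 ± 0.20) did not pass, and no difference between steps was tested.

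In the 2iL course Irx3 had 3 counts at 0 h and was at or below 1.15 CPM through 36 h. It was 5.27 and 2.81 CPM at 48 h, 18.4 and 21.1 CPM at 72 h, 48.5 and 34.5 CPM at 84 h, and 50.7 and 44.0 CPM at 96 h. On 191 against 3 counts, the level at 96 h was 72.2 times that at 0 h, with a 95% counting interval of 24.3 to 353. Irx3 was first higher at 48 h, when 14.7% of all genes were higher, a call that did not hold without 2iL 48 h replicate 1 (adjusted p = 0.098, edgeR) or 2iL 0 h replicate 1 (0.0528). Its 60 to 72 h step was called (log2 1.24, 0.781% of genes higher), but did not hold when any 1 of the 4 libraries of those times was left out, with adjusted p from 0.13 to 0.245 (edgeR). The 4 libraries of 2iL 84 h and 96 h lay between those of 2i 24 h and 2i 48 h.

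Irx5 rose along with Irx3. No Irx5 read was counted at 2i 0 h. It was 7.35 and 5.01 CPM at 24 h, 7.75 and 15.95 CPM at 48 h, 17.8 and 26.8 CPM at 72 h, and 36.6 and 34.9 CPM at 84 h. Against the 0 counts at 0 h, the level at 84 h was at least 51.6-fold higher, taking 3 counts over the group as the floor. In the 2iL course Irx5 was 11.5 and 10.2 CPM at 84 h and 5.20 and 12.4 CPM at 96 h. On 40 against 2 counts, its level at 96 h was 22.7 times that at 0 h, with an interval of 5.88 to 194. It was first higher at 60 h there, a call that did not hold without 2iL 0 h replicate 2 (adjusted p = 0.145, edgeR) or 2iL 60 h replicate 2 (0.164). Irx5 and Irx3 had the most similar profiles of any pair of the 10 members, with r = 0.96 over 31 libraries that share depth and time of sampling.

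Meis2 (chromosome 2, 115863064 to 116065839, minus strand) was the only member called at 2i 12 h, when 5.43% of all genes were higher. Its levels were 23.8 and 29.7 CPM at 0 h, 129 and 123 CPM at 12 h, and 49.5 and 39.0 CPM at 24 h. The gain at 12 h was 2.24 ± 0.23 on the log2 scale (adjusted p = 3.3e-08, edgeR), and the step from 12 to 24 h fell by 1.52, where 5.05% of genes fell. It was 31.2 and 28.7 CPM at 36 h, 56.9 and 30.97 CPM at 48 h, 191 and 146 CPM at 60 h, and 279 and 298 CPM at 84 h. Meis2 therefore had an early peak and a larger late rise, separated by lower levels from 24 to 48 h. The step from 48 to 60 h was 1.97 ± 0.22 (adjusted p = 1.6e-06, edgeR), where 0.51% of genes rose. The calls above 0 h at 24 h and 48 h did not hold without some libraries: without 2i 0 h replicate 1 (adjusted p = 0.292 and 0.305, edgeR), 2i 24 h replicate 1 (0.241) or 2i 48 h replicate 1 (0.682), and narrowly missed without 2i 0 h replicate 2 (0.0509 and 0.0516).

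In the 2iL course Meis2 was lower than at 0 h in the middle of the course. It was 32.5 and 42.5 CPM at 0 h, and both 24 h libraries lay above these, at 51.0 and 60.5 CPM. This early gain was 1.48-fold, with a counting interval of 1.17 to 1.87, and was not called. The 2iL course was not sampled at 12 h, so an earlier peak could not be seen. Meis2 was 23.1 CPM in the 1 library at 36 h and 14.5 and 11.6 CPM at 48 h. It was 7.14 and 6.15 CPM at 60 h, 16.3 and 14.4 CPM at 72 h, and 52.0 and 45.9 CPM at 96 h. The log2 change from 0 h was -1.51 at 48 h, -2.47 at 60 h and -1.28 at 72 h, and 14.4%, 13.9% and 14.1% of all genes were lower at these times. Meis2 was the 1 member called lower at each of them. Its value at 96 h, 0.38 ± 0.23 above 0 h, did not pass (adjusted p = 0.191, edgeR).

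Meis1 (chromosome 11, 18879817 to 19018985, minus strand) had 12 counts at 2i 0 h and 94 at 84 h. It was 2.38 and 3.30 CPM at 0 h, 4.803 and 3.92 CPM at 12 h, and 0 and 0.358 CPM at 24 h, then 14.7 and 11.9 CPM at 72 h and 35.4 and 20.4 CPM at 84 h. The change at 84 h was 3.29 ± 0.62 (log2, adjusted p = 1.1e-04, edgeR). The 72 h call did not hold without 2i 0 h replicate 1 (adjusted p = 0.113, edgeR) or 2i 72 h replicate 1 (0.0885). The lower level at 24 h than at 12 h rests on 1 count at 24 h, and its call did not hold when any 1 of the 4 libraries of those times was left out, with adjusted p from 0.102 to 0.174 (edgeR). Both Meis genes were thus lower at 24 h than at 12 h and highest at 84 h. At 2iL 96 h Meis1 was 3.25 and 10.5 CPM against 1.67 and 2.21 CPM at 0 h, and this call did not hold without 2iL 96 h replicate 2 (adjusted p = 0.624, edgeR), 2iL 0 h replicate 1 (0.175) or 2iL 0 h replicate 2 (0.102).

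Nr2f1 (chromosome 13, 78188973 to 78199757) and Nr2f2 (chromosome 7, 70351944 to 70366735), both on the minus strand, rose late in the 2i course. Nr2f1 was 1.99 and 6.59 CPM at 0 h, 6.07 and 10.01 CPM at 60 h, 33.2 and 40.2 CPM at 72 h, and 155 and 122 CPM at 84 h. Nr2f2 was 1.99 and 5.49 CPM at 0 h, 7.38 and 4.002 CPM at 60 h, 41.8 and 45.4 CPM at 72 h, and 165 and 150 CPM at 84 h. Neither gene passed against 0 h at any time up to 60 h. The log2 changes at 84 h were 5.10 ± 0.42 for Nr2f1 (adjusted p = 4.9e-11, edgeR) and 5.46 ± 0.46 for Nr2f2 (adjusted p = 8.6e-11). As a share of its own highest group mean, Nr2f1 was at 5.8% and Nr2f2 at 3.6% at 60 h. They were at 26.4% (Nr2f1) and 27.7% (Nr2f2) at 72 h and at their maximum at 84 h.

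The steps from 60 to 72 h were 2.19 for Nr2f1 and 2.90 for Nr2f2 on the log2 scale. The Nr2f1 step did not hold without 2i 60 h replicate 1 (adjusted p = 0.106, edgeR). From 72 to 84 h the 2 genes gained a further 1.92 ± 0.33 and 1.85 ± 0.34, and they were 2 of the 10 genes called higher in that step, 0.0796% of those tested. These 2 calls did not pass without 2i 72 h replicate 1 (adjusted p = 0.345 and 0.443, edgeR), 2i 72 h replicate 2 (0.107 and 0.218) or 2i 84 h replicate 1 (0.195 and 0.203). The Nr2f2 call was also lost without 2i 84 h replicate 2 (0.0945).

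After 2iL withdrawal the same pair rose in the last step sampled. Nr2f1 was 4.69 and 0.539 CPM at 84 h and 7.79 and 13.6 CPM at 96 h, and Nr2f2 was 4.69 and 7.54 CPM and then 18.8 and 25.3 CPM. These were the only members called from 84 to 96 h, with log2 steps of 2.05 ± 0.58 and 1.87 ± 0.49, where 1.75% of genes were higher. Neither call held without 2iL 96 h replicate 2 (adjusted p = 0.287 and 0.145, edgeR) or 2iL 84 h replicate 2 (0.332 and 0.0631), and that of Nr2f2 also not without 2iL 84 h replicate 1 (0.106). Against 0 h, Nr2f2 at 96 h was higher by 2.596 ± 0.51 (adjusted p = 1.4e-04, edgeR). The Nr2f1 call at 96 h, 1.44 ± 0.50 (adjusted p = 0.0234), did not hold without 2iL 96 h replicate 2 (0.3), 2iL 0 h replicate 1 (0.125) or 2iL 0 h replicate 2 (0.0697). Nr2f2 also had an earlier, lower high point, at 13.9 and 5.86 CPM at 24 h and 13.5 CPM in the 1 library at 36 h. Its call at 36 h did not hold with a replicate block (adjusted p = 0.0634, edgeR) or with RLE scaling (0.0539), or without 2iL 0 h replicate 1 (0.317) or 2iL 0 h replicate 2 (0.0501).

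Pax6 (chromosome 2, 105668900 to 105697364, plus strand) was the only member called between the 2 media before withdrawal, while 4 had an unadjusted p below 0.05 (edgeR). It was 12.3 and 5.49 CPM in 2i and 1.25 and 0 CPM in 2iL. The ratio was 14.7, on 41 against 3 counts, with an interval of 4.68 to 74.1, and 3.75% of genes were higher in 2i. The other three were Meis2, with a ratio of 0.704 in 2i to 2iL (counting interval 0.551 to 0.896), Six3, with 4 counts against 0, and Mn1, with 0 against 4, at adjusted p of 0.253, 0.254 and 0.222 (edgeR). The Pax6 call did not hold without 2i 0 h replicate 1 (adjusted p = 0.058, edgeR). After 2iL withdrawal Pax6 was the first member called higher, at 24 h, where 5.65% of genes were higher. It was 13.1 and 12.7 CPM there, 20.1 times its 0 h level with an interval of 6.25 to 103. Those 24 h levels lay within the range of the 2i libraries at 12 h, 10.3 and 16.7 CPM.

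In the 2i course Pax6 stayed between 3.92 and 16.7 CPM through 60 h. It was 28.9 and 26.04 CPM at 72 h and 55.6 and 51.0 CPM at 84 h, above every earlier library of either course. The change at 84 h was 2.52 ± 0.37 (log2, adjusted p = 2.6e-06, edgeR). The 72 h call did not hold without 2i 0 h replicate 2 (adjusted p = 0.0585). In the 2iL course Pax6 was 15.6 and 11.7 CPM at 96 h, on both sides of its own 24 h levels.

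Mn1 (chromosome 5, 111417362 to 111457033, plus strand) had 0 counts at 2i 0 h and 2.58 and 2.35 CPM at 48 h. It was 17.8 and 24.0 CPM at 60 h, 32.5 and 38.7 CPM at 72 h, and 35.4 and 44.5 CPM at 84 h, at least 58.3-fold above 0 h. The step from 48 to 60 h, 3.05 ± 0.51 on the log2 scale (adjusted p = 0.00105, edgeR), did not hold without 2i 48 h replicate 2 (0.0848). Mn1 and Meis2 were thus the 2 members called between 48 and 60 h, before the Nr2f genes. The calls of Mn1 at 24, 36 and 48 h rest on 8 to 10 counts and did not hold without 2i 0 h replicate 1 (adjusted p = 0.202, 0.0734 and 0.106, edgeR), and that at 24 h also not without 2i 24 h replicate 2 (0.405). Those at 24 and 48 h did not hold without 2i 0 h replicate 2 either (0.129 and 0.0512). At 2iL 96 h Mn1 was 9.74 and 3.89 CPM, higher than at 0 h by 2.79 ± 0.71 (adjusted p = 0.00242), and without 2iL 96 h replicate 1 this was 0.053.

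**Figure D2:**
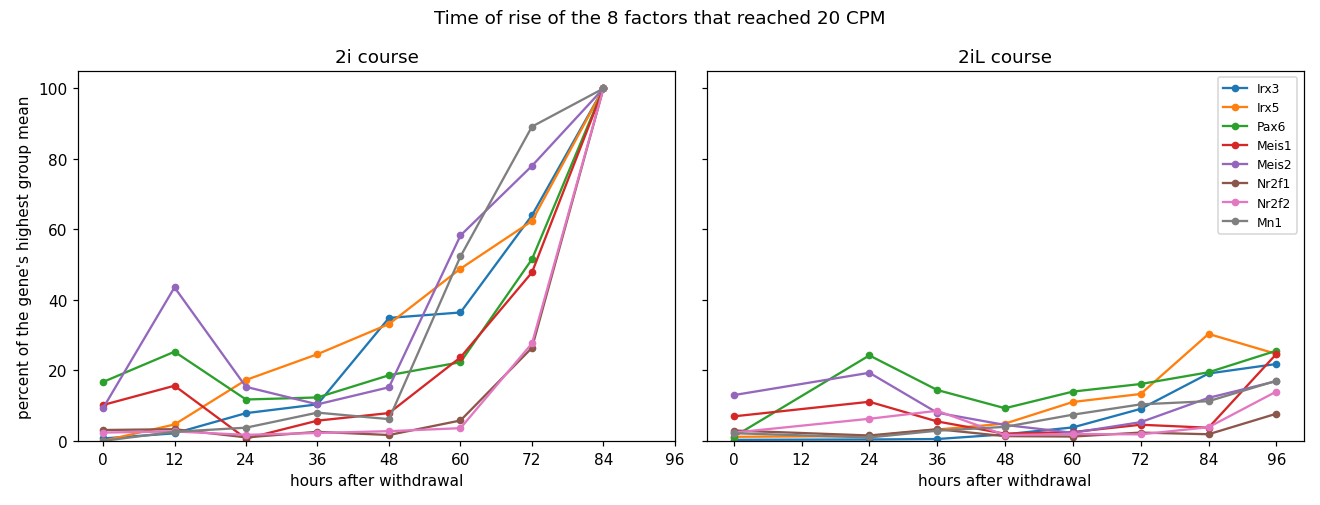
Group mean of 8 members as a percent of the gene's own highest group mean (y axis) against hours after withdrawal (x axis), 2i course at left and 2iL course at right, 1 line per gene. The 8 genes are those with a group mean of at least 20 CPM. Mn1 is at 52.3% and Meis2 at 58.3% of their maxima at 2i 60 h, when Nr2f1 is at 5.8% and Nr2f2 at 3.6%, and no gene exceeds 30.4% in the 2iL course.

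Six3 (chromosome 17, 85613608 to 85629302, plus strand) was highest late in the 2iL course. It had 4 counts at 2i 0 h and 0 at 2i 84 h, a difference that did not pass (adjusted p = 0.155, edgeR), and its highest 2i level was 3.50 CPM, in 1 library at 60 h. After 2iL withdrawal it had 0 counts at 0 h and at 24 h, 1.65 and 2.00 CPM at 48 h, and 4.55 and 5.83 CPM at 96 h. The 22 counts at 96 h were at least 8.31-fold above 0 h. Six3 did not pass the filter on low counts without 2iL 96 h replicate 2, so it was tested through the group where it is highest. Its call there (adjusted p = 9.7e-04, edgeR) is therefore no support beyond these counts. The call at 48 h rests on 10 counts and did not hold when any 1 of the 4 libraries compared was left out, with adjusted p from 0.0586 to 0.145 (edgeR). Lhx5 (chromosome 5, 120431699 to 120441223, plus strand), the other anterior neural plate factor, had at most 7 counts in any group and was not tested. Its 7 counts at 2iL 84 h against 1 at 0 h gave a ratio of 8.64 with an interval of 1.11 to 389, and its 6 counts at 2i 60 h were at least 2.02-fold above 0 h, where it had 0. These bounds cover counting error only, not the spread between libraries.

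Counted by time, 1 member was higher at 12 h of the 2i course, 4 at 24 h, 3 at 36 h (8.72% of all genes), 4 at 48 h (10.2%), 4 at 60 h (12.4%), 8 at 72 h (14.1%) and 8 at 84 h. In the 2iL course 1 was higher at 24 h, 2 at 36 h (5.56%), 3 at 48 h, 3 at 60 h (13.8%), 4 at 72 h (14.6%), 4 at 84 h (17.6%) and 8 at 96 h. The count went from 4 to 8 between 60 and 72 h after 2i and between 84 and 96 h after 2iL. Without 2iL 96 h replicate 2 the 96 h count was 5, and the calls of Meis1 (adjusted p = 0.624, edgeR) and Nr2f1 (0.3) did not hold and Six3 was not tested. Nr2f2 passed at 2iL 96 h and had also passed at 36 h.

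The levels reached by the 2 courses were compared directly at the last times, in comparisons added after the values had been seen. At 84 h, 8 members were lower after 2iL than after 2i and 0 were higher, where 6.12% of all genes were lower. The smallest of the 8 differences was -1.71 ± 0.39 (Irx5) and the largest -5.68 ± 0.46 (Nr2f1), on the log2 scale. Between 2iL 96 h and 2i 84 h, 8 members were lower (2.84% of all genes) and 1, Six3, was higher (3.58%). Nr2f1 was lower by 3.63 ± 0.36 there (adjusted p = 3.4e-08, edgeR), and Irx3 by 2.20 ± 0.21 (adjusted p = 1.7e-08). For each of Irx3, Irx5, Pax6, Meis1, Meis2, Nr2f1, Nr2f2 and Mn1 both 2i 84 h libraries lay above all 4 libraries of 2iL 84 h and 96 h. Six3, at 22 against 0 counts, was at least 6.15-fold higher at 2iL 96 h. Without 2iL 96 h replicate 2 Six3 did not pass the filter on low counts, so it was tested through the group where it is highest. Its call did not hold without 2i 84 h replicate 1 (adjusted p = 0.1, edgeR) or 2i 84 h replicate 2 (0.147), nor did that of Meis1 without 2i 84 h replicate 1 (0.313), 2i 84 h replicate 2 (0.0546) or 2iL 96 h replicate 1 (0.269).

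Whether the changes from 0 h differed is a separate question, since the courses began at different levels for Pax6. At 84 h the change was smaller in the 2iL course for 5 members, where 4.51% of all genes had a smaller one: Meis1, Meis2, Nr2f1, Nr2f2 and Mn1. The difference was -3.53 ± 0.32 for Meis2 and -5.71 ± 0.82 for Nr2f1, with adjusted p of 2.7e-09 and 9.4e-06 (edgeR). For Irx3 (-1.34 ± 1.04, adjusted p = 0.493), Irx5 (-4.67 ± 2.14, 0.166) and Pax6 (1.37 ± 0.88, 0.352) it did not pass. The Irx5 value is fitted against 0 counts at 2i 0 h and depends on the prior count, so its size is not a bound. The Meis1 call did not hold when any 1 of 5 libraries was left out, namely the 2iL 0 h pair, 2iL 84 h replicate 2 and the first replicates of 2i 0 h and 2i 84 h, with adjusted p from 0.08 to 0.135. Without 2iL 0 h replicate 2, 2 of the 5 calls held. Over the 6 shared later times together, 7 members differed between courses, against 22.5% of all genes, and Irx5 and Six3 did not pass.

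Lists of regional genes gave the surroundings of these levels. Against 0 h, 16.6% of all tested genes were higher and 16.6% lower at 2i 84 h, and 19.5% were higher and 20.1% lower at 2iL 96 h. Of 9 hindbrain genes 8 were tested, and all 8 were higher at 2i 84 h than at 0 h, while 2 rose and 1 fell at 2iL 96 h. Egr2, a factor of hindbrain rhombomeres, was 87.5 ± 17.4 CPM (SD, n = 2) at 2i 84 h and 1.56 ± 0.55 CPM at 2iL 96 h. Hoxa2 was 18.3 ± 4.5 and 1.23 ± 0.09 CPM, and Hoxb2 21.3 ± 7.4 and 0.583 ± 0.83 CPM. Of the 9 tested genes of the caudal epiblast and spinal cord, 3 rose at 2i 84 h and 5 fell at 2iL 96 h. Cdx2, a caudal homeobox factor, was 10.7 ± 0.47 CPM at 2i 0 h and 26.9 ± 8.4 CPM at 2i 84 h. It was 3.59 ± 2.6 CPM at 2iL 0 h and had 0 counts at 2iL 84 h and 96 h. The 14 caudal genes already summed to 97.7 to 104 CPM at 2i 0 h. Their sum was 18.7 to 23.9 CPM at 2i 48 h and 124 to 158 CPM at 2i 84 h. In the 2iL course it was 82.4 to 84.2 CPM at 0 h and 13.2 to 17.5 CPM at 96 h.

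Otx2, a forebrain and midbrain factor also expressed in the epiblast, ended below its 0 h level in the 2i course and above it in the 2iL course. In the 2i course it first rose, to 350 CPM at 48 h, before it fell. It was 124 ± 9.2 CPM at 2i 0 h and 9.29 ± 0.25 CPM at 84 h, against 48.2 ± 7.0 CPM at 2iL 0 h and 344 ± 23 CPM at 96 h. En1, a midbrain and isthmus factor, was 56.3 ± 11.4 CPM at 2iL 96 h and 3.72 ± 0.80 CPM at 2i 84 h. Its list of 10 genes had 6 tested. Of these, 3 rose and 1 fell at 2iL 96 h against 0 h (19.5% and 20.1% of all genes). At 2i 84 h 1 rose (16.6%), and 1 was higher at 2iL 96 h than at 2i 84 h (3.58%). En2 of that list went from 26 counts at 2iL 0 h to 3 at 96 h. Among the groups listed here, En1 and Six3 were both highest at 2iL 96 h. Otx2 was as high at 2i 48 h (350 CPM) and at 2iL 84 h (351 CPM), where Six3 was 0.235 and 0.79 CPM. The Nr2f and Meis genes had their highest levels at 2i 84 h, where Egr2, Hoxa2, Hoxb2 and Cdx2 were highest among the groups listed here. This was not particular to them, since Irx3, Irx5, Pax6 and Mn1 were also highest at 2i 84 h. Among the groups listed here, so were Sox1 (203 CPM) and Fezf2 of the forebrain list (9.23 CPM). In bulk RNA, fewer cells that express a gene and less RNA per cell cannot be told apart.

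**Figure D3:**
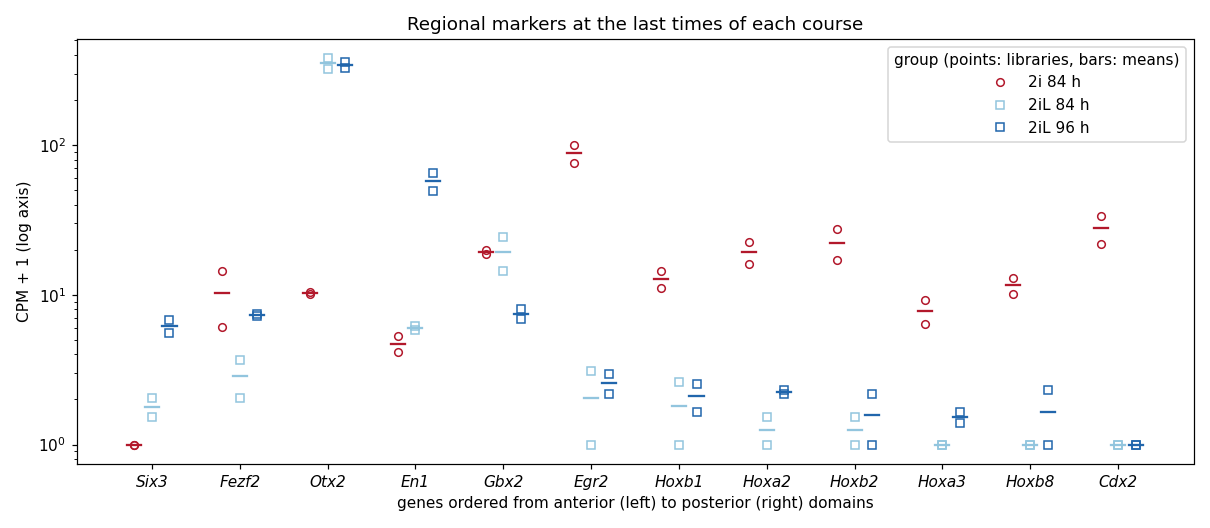
CPM + 1 (y axis, log scale) of 12 regional genes, ordered by the domain they are known to mark from anterior to posterior (x axis), at 2i 84 h, 2iL 84 h and 2iL 96 h. Points are libraries and bars group means. Otx2 lies at 9.29 CPM at 2i 84 h and at 351 and 344 CPM at 2iL 84 h and 96 h. Egr2 and the Hox genes shown lie higher at 2i 84 h. So does the anterior gene Fezf2, at 9.23 CPM there and at 1.87 and 6.36 CPM at 2iL 84 h and 96 h. Gbx2 lies at 18.3 CPM at 2i 84 h and at 18.5 and 6.42 CPM at 2iL 84 h and 96 h.

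Genes of retinoic acid handling were read because Meis and Nr2f genes are known to respond to it. Of 10 tested genes 4 rose and 2 fell at 2i 84 h, and 6 rose and 1 fell at 2iL 96 h. Among all tested genes 16.6% rose and 16.6% fell at 2i 84 h, and 19.5% rose and 20.1% fell at 2iL 96 h. Crabp1, a retinoic acid-binding protein, was 3.59 ± 1.1 CPM at 2i 0 h, 302 ± 34 CPM at 72 h and 781 ± 206 CPM at 84 h, and 28.6 ± 7.4 CPM at 2iL 96 h. Cyp26b1, which degrades retinoic acid, was 4.59 ± 5.9 CPM at 2i 0 h and 88.7 ± 20.1 CPM at 84 h. Other genes of the list had other profiles. Crabp2 was 61.7 ± 12.3 CPM at 2i 48 h, 56.1 ± 7.3 CPM at 2i 84 h and 25.2 ± 18.2 CPM at 2iL 96 h, and Cyp26a1, which also degrades retinoic acid, had 1 count at 2i 84 h and 23 at 2iL 96 h. A link to the Nr2f or Meis levels was not tested.

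Relatives and partners of the members were a list of 21 genes with 19 tested. Of these, 12 rose and 3 fell at 2i 84 h, and 11 rose and 1 fell at 2iL 96 h. The shares of all tested genes, for these lists and those below, were 16.6% up and 16.6% down at 2i 84 h. At 2iL 96 h they were 19.5% up and 20.1% down. Pbx3, a homeodomain partner of Meis proteins, was 22.02 ± 3.1 CPM at 2i 0 h and 101.2 ± 0.25 CPM at 84 h, and 8.61 ± 0.98 and 70.1 ± 8.2 CPM in the 2iL course. Irx1, of the other Iroquois cluster, was 15.8 ± 1.9 CPM at 2i 84 h and 3.83 ± 1.0 CPM at 2iL 96 h. Six4, a relative of Six3, was 46.2 ± 3.2 CPM at 2i 0 h and 11.1 ± 2.1 CPM at 84 h. Of 14 tested genes of neural progenitors, 12 rose and 1 fell at 2i 84 h, and 9 rose and 1 fell at 2iL 96 h. Sox1, an early neural plate factor, was 203 ± 20 and 119 ± 23 CPM at those times. Of 7 tested dorsal neural tube genes 4 rose and 1 fell at 2i 84 h, and 1 rose at 2iL 96 h. Of 7 tested genes of the ventral list, which counts Irx3 and Irx5 among them, 7 rose at 2i 84 h, and 3 rose and 1 fell at 2iL 96 h.

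Markers of other cell types were summed over each list, and several sums were higher at the last times than at 0 h. Calls in these lists stand beside 16.6% of all tested genes up at 2i 84 h. At 2iL 96 h 19.5% were up and 20.1% down. The summed level of 14 mesoderm genes was 20.4 to 26.5 CPM at 2i 84 h and 9.74 to 22.2 CPM at 2iL 96 h, against 27.4 to 30.8 and 14.2 to 19.6 CPM at 0 h, and Msgn1 and Meox1 had 0 counts at both late times. For 7 definitive endoderm genes the sum was 32.2 to 33.5 CPM at 2i 84 h and 6.49 to 12.1 CPM at 2iL 96 h, against 9.13 to 11.5 and 10.4 to 19.5 CPM at 0 h, 3 of 4 tested rose at 2i 84 h, and Cer1 had 0 counts at both late times. For 7 fibroblast genes it was 17.7 to 28.96 and 21.4 to 24.0 CPM, against at most 5.83 CPM at 0 h. The 8 neural crest genes summed to 82.7 to 89.6 CPM at 2i 84 h and to 66.5 to 77.9 CPM at 2iL 96 h, against 34.2 to 50.5 and 32.3 to 34.6 CPM at 0 h, with Sox10 and Snai2 at 0 counts at 2iL 96 h. For 8 primitive endoderm genes the sum was 49.2 to 59.0 CPM at 2i 84 h, against 12.7 to 15.9 CPM at 0 h, and 59.9 to 74.7 CPM at 2iL 96 h, against 44.7 to 50.4 CPM. Of the 3 tested, 2 rose at 2i 84 h, and 2 rose and 1 fell at 2iL 96 h, while Sox7 had 0 counts at both late times. For 9 placode and surface ectoderm genes it was 43.4 to 47.4 CPM at 2i 84 h, against 12.3 to 25.8 CPM, and 68.8 to 75.3 CPM at 2iL 96 h, against 27.1 to 34.5 CPM. Of the 7 tested, 1 rose at 2i 84 h, and 3 rose and 2 fell at 2iL 96 h. Krt18, an epithelial keratin, was 45.4 CPM there and had 0 counts at 2iL 0 h. The part of any such cells in the members' levels was not tested.

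Profiles most like each member were ranked over the 31 libraries by Pearson r of log2 CPM among 8250 genes, for the 8 members with a group mean of at least 20 CPM. Irx3 was closest to Stox2, Pbx3 and Fzd2 (r = 0.95, 0.94 and 0.94), and Irx5 to Fzd2, Fyn and Mdk (0.93, 0.91 and 0.91). Nr2f1 was closest to Spag9 (0.91), Mllt3 and Dcaf10, and Nr2f2 to Dcaf10 (0.83), Mapkapk2 and Crabp1. Mn1 was closest to Ptn (0.91), Vezf1 and Nrep, and Pax6 to Mest (0.83), Cdkn1c and Ccnd2. Meis1 was closest to Fhl1 (0.85), Tspan13 and Rxra, and Meis2 to Hmga2 (0.82), Tspan13 and Bex3. The libraries share depth and sampling times, so these values describe likeness of profile only. Among the members themselves r was highest for Irx3 with Irx5, then 0.86 for Meis1 with Nr2f1 and 0.85 for Nr2f1 with Nr2f2, while Six3 with Meis2 gave -0.08.

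The counting was not stated to use strand, so antisense neighbours limit some values. Irx3os overlaps Irx3 and had 51 counts beside 2447 of Irx3, and A830082K12Rik overlaps Nr2f1 with 118 beside 794. Antisense genes overlapping Meis1 had 4 and 17 counts beside 269, and Pax6os1 had 0 beside 722 of Pax6. The one overlapping Six3 had 3 beside 67, and the one overlapping Lhx5 had 2 beside 29.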

How the data were processed

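Counts of reads per gene and a table of CPM values were deposited by the authors. Per the submitters' processing notes the tools were bcl2fastq, STAR 2.6.0a and HTSeq with mm10. Their roles and the annotation release are not given in the sources used here. The deposited CPM values equal the counts scaled by library total to within 4.7e-10 CPM. Symbols and positions came from GENCODE M21 (GRCm38), matched on Ensembl ID. Rows that name no gene stayed out of library totals. With ambiguous reads they were 23.8% to 55.6% of uniquely mapped reads.

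Levels printed are CPM from the counts with TMM factors. All 31 libraries entered 1 fit (edgeR 4.0.16 in R 4.3.3, quasi-likelihood, filterByExpr, a coefficient per group, 15 residual degrees of freedom), with Benjamini-Hochberg adjustment over 12556 genes and a threshold of 0.05. The 2iL 36 h library takes its spread from the other groups. A 2iL 36 h replicate 2 library of 7298 counts was left out. SE is the log2 change over the root of F. Bounds use a floor of 3 counts over the group, and ratios on few counts carry 95% Clopper-Pearson intervals. Both cover counting error only, since no molecular identifiers are named.

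The members, gene lists and tests were chosen with earlier results of these data known. Named genes are all 10 members, up to 4 called genes a list with the largest change (mean log2 CPM of at least 1) and the 3 likest genes a member (mean log2 CPM of at least 3, prior count 2). Six4, Krt18, Crabp2, Cyp26a1, En2, the list genes at 0 counts and, in the regional plot, Gbx2, Hoxb1, Hoxa3 and Hoxb8 were named after their values were seen. 1 list gene is not reported here. Alternatives were DESeq2 1.42.0, RLE scaling, no filter, all 32 libraries, each course alone, a replicate block, 4 libraries that stand apart left out, and each library left out.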

Additional observations from a re-analysis of the deposited data

Results flagged for a closer look

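The change from 0 h to 84 h differed between the 2 courses for 5 members, by the test of the difference itself (edgeR, log2, change in the 2iL course minus change in the 2i course). The values were -4.12 for Meis1, -3.53 for Meis2, -5.71 for Nr2f1, -4.74 for Nr2f2 and -7.00 for Mn1. The Mn1 value is fitted against 0 counts at 2i 0 h and depends on the prior count, so its size is not a bound. The Mn1 call did not hold without 2iL 0 h replicate 2 (adjusted p = 0.174) or 2i 0 h replicate 1 (0.0511), and the Nr2f2 call not without 2iL 0 h replicate 2 (0.0552).

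Over the 6 shared later times together, the 2 courses differed for 7 members, with adjusted p of 0.00516 for Irx3, 3.6e-04 for Pax6, 0.00282 for Meis1, 3.3e-13 for Meis2, 2.5e-06 for Nr2f1, 9.3e-08 for Nr2f2 and 0.0281 for Mn1 (edgeR). At 24 h Pax6 was the only member whose change from 0 h was called different between the courses. Its change was larger in the 2iL course at 24 h by 4.71 ± 0.87 (log2, adjusted p = 0.00101), where the 2iL course began from 3 counts.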

How the results depend on the processing

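No member's call reversed direction under any alternative run. Of the called member results, DESeq2 kept 88 of 96, RLE scaling 96 of 97, no filter 94 of 97, all 32 libraries 93 of 94, the 2i course alone 43 of 43, the 2iL course alone 24 of 31, leaving out the 4 libraries that stand apart 92 of 97, and leaving out single libraries 321 of 402. Those 4 are the first replicates of 2iL 48 h and 96 h and the second ones of 2iL 84 h and 2i 12 h. The number of members called at 2i 84 h against 0 h stayed at 8 without each library. The cause of the shifts below was not tested.

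Without single libraries, genes called numbered 2618 to 3523 at 2i 84 h against 0 h (4171 with all), 521 to 642 between 2i and 2iL at 0 h (1004), 813 to 2175 between 2iL and 2i at 84 h (1825), 336 to 990 between 2iL 96 h and 2i 84 h (805) and 891 to 1913 for the difference between courses (1421). Without the 4 libraries, 1663 genes were called between media at 0 h. Members called without single libraries numbered 5 to 7 at 2iL 96 h (8), 0 to 1 between media at 0 h (1) and 2 to 5 for the difference between courses (5). Called member steps of the 2iL course, 3 as reported, were 1 to 6 without single libraries, 5 with DESeq2, 5 without the 4 libraries, 8 with no filter and 0 in the 2iL course alone. The joint tests were not rerun with DESeq2 or without single libraries.

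The labels do not pair libraries by replicate number. Deviations of same-numbered libraries correlated at -0.592 to 0.651 over all pairs of the 15 groups with 2 libraries (median 0.0094), with 14 pairs over 0.1. With a replicate block, the members called at 2i 84 h against 0 h numbered 8, and 96 of 97 called member results held. The call lost was Nr2f2 at 2iL 36 h. Depth limits Six3 and Lhx5 most, with at most 22 and 7 counts in a group.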
